A study of Mus musculus with 2254 samples.

Results

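Arterial and venous endothelial cells carry different sets of transcripts, and 10 genes that mark this difference were followed here through single cells of the mouse brain. They are 7 genes of arteries (Gkn3, Bmx, Sema3g, Efnb2, Gja4, Gja5 and Vegfc) and 3 genes of veins (Nr2f2, Ephb4 and Vwf), chosen by symbol and present as 10 of the 30950 rows of the count table. The cells came from brains of adult C57BL/6 mice of the SM22-Cre;Rosa26-stop-tdTomato genotype, in which the SM22 promoter of smooth muscle drives Cre and so turns on a red reporter in that lineage. Notch3, a receptor of vascular mural cells, was labelled KO in one group and WT in the other, and all cells of both groups carry the reporter genotype. Sorted cells were placed in plates and read by Smart-seq2, a method that copies whole transcripts of single cells. Plates 043, 467 and 471 held the KO cells, and plates 044, 468 and 469 the WT cells. No label names an animal, and the sort gates are not described, so each genotype is 1 sample, no difference between genotypes could be tested, and plates are given only to describe spread.

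In the developing and adult vessel wall, arterial identity is set by VEGF and Notch signalling, and venous identity by the nuclear receptor COUP-TFII, which Nr2f2 encodes and which represses Notch signalling in venous endothelium. Ephrin-B2, the product of Efnb2, is the membrane ligand of arteries, and EphB4, the product of Ephb4, is its receptor on veins. Gja4 and Gja5 encode connexins 37 and 40, which couple arterial endothelial cells through gap junctions. Bmx is a non-receptor tyrosine kinase of arterial endothelium, Sema3g a secreted semaphorin, Vegfc a growth factor best known for lymphatic vessels, Gkn3 a gastrokine found in brain arteries, and Vwf the clotting protein stored in endothelial granules. In the brain the endothelium changes gradually from artery through capillary to vein, so many capillary cells show neither set.

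On GRCm38, with the gene models of GENCODE release M21, the arterial genes are Gkn3 (chr6:87383256-87388935, minus strand), Bmx (chrX:164192842-164258193, minus), Sema3g (chr14:31217860-31230352, plus), Efnb2 (chr8:8617434-8661242, minus), Gja4 (chr4:127311421-127314039, minus), Gja5 (chr3:96904693-97077416, plus) and Vegfc (chr8:54077606-54187096, plus). The venous genes are Nr2f2 (chr7:70351944-70366735, minus), Ephb4 (chr5:137350109-137378669, plus) and Vwf (chr6:125546774-125686679, plus). Exons of Gja5 overlap those of Gpr89, exons of Nr2f2 those of B130024G19Rik and exons of Ephb4 those of Zan, each on the other strand. The strand setting of the counting is not given in the sources used here, so reads of these 3 members and of their partners cannot be told apart.

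The 250 bases before the start are shown for Bmx, whose reads came mostly from endothelial gate cells (defined below), and for Gja4 and Nr2f2, whose reads came mostly from mural cells. The sequences are from RefSeq on GRCm38.p6, written 5′ to 3′ on the gene's strand, for Bmx at chrX:164258194-164258443, for Gja4 at chr4:127314040-127314289 and for Nr2f2 at chr7:70366747-70366996, all on the minus strand. Capitals mark matches to TGGGAA, the core bound by the Notch effector RBPJ, or to ACAAT, a core of SOX factors, on either strand.
Bmx: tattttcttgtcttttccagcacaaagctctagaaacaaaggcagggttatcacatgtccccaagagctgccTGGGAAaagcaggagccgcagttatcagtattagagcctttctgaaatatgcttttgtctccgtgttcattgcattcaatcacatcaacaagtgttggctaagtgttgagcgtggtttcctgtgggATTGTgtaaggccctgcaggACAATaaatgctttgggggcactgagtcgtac
Gja4: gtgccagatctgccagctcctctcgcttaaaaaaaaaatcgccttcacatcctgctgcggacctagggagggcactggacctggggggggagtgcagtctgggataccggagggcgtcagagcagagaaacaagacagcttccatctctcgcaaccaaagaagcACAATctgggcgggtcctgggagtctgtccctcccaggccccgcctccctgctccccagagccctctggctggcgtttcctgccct
Nr2f2: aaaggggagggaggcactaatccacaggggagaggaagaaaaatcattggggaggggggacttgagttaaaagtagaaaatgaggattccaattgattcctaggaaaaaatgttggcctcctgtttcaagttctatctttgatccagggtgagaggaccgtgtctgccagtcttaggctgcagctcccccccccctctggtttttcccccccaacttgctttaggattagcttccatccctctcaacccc
Promoters of 9 of the 10 members were matched, and all but Vwf were searched for these 2 cores, for GTAAACA (FOX), CCGGAA (ETS) and AGGTCA (nuclear receptors), and for the CArG box by its name. Bmx held 1 TGGGAA, with its first base at -178 from the start, and 2 matches to ACAAT, at -52 and -32. Gja4 held 1 ACAAT at -86, and the other 7 promoters held no match to any of these motifs. Among 32851 promoters of the same length, 21.6% held TGGGAA, 27.7% ACAAT, 3.17% GTAAACA, 12.0% CCGGAA, 14.0% AGGTCA and 1.47% a CArG box. These matches describe letters only.

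After filtering, 2252 of 2254 cells remained, 1126 per genotype, with 50570 to 763059 counts per cell and a median of 291913. Values are CPM, the gene's share of a cell's total counts on the usual scale, and a gene was called detected in a cell at 10 CPM or more. Endothelial gate cells were those in which the endothelial genes Cldn5 and Pecam1 together reached 200 CPM. The gate held 242 cells, 46 of them KO (16, 12 and 18 on plates 043, 467 and 471) and 196 WT (19, 61 and 116 on plates 044, 468 and 469). The edge was thinly filled, with 16 cells between 100 and 200 CPM and 6 in the next 100 CPM above, and the median of gate cells was 2911 CPM. Of the 242 cells, 51 also had smooth muscle markers (Acta2, Myh11 and Tagln) summing to 1000 CPM or more, and these were 36 of the 46 KO cells but 15 of the 196 WT cells. Whether a well with both sets held more than 1 cell was not tested. The other 191 cells, called clean here, were 10 KO and 181 WT cells, and they carried a median of 10640 CPM over 7 endothelial markers. By clustering without the 10 members, 178 of the 191 fell in the endothelial-like cluster and 9 in a cluster left unnamed, whose leading genes included Frzb and Npy. Those 9 cells passed the gate through Cldn5, at 377 to 845 CPM, with Pecam1 at no more than 11.4 CPM. The pericyte markers Rgs5, Kcnj8 and Pdgfrb together reached 500 CPM in 90 of the 178 endothelial-like clean cells, which bears on Nr2f2 below.

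In the 191 clean cells each arterial gene was found in a minority. Gkn3 was detected in 19 cells (9.95%), Bmx in 23, Sema3g in 29, Efnb2 in 31, Gja4 in 30, Gja5 in 16 and Vegfc in 20. The median over detecting cells was 651 CPM for Gkn3, 627 CPM for Bmx, 163 CPM for Sema3g, 205 CPM for Efnb2, 374 CPM for Gja4, 85.0 CPM for Gja5 and 376 CPM for Vegfc. Venous genes were found more widely, Nr2f2 in 56 cells (29.3%), Ephb4 in 84 (44.0%) and Vwf in 103 (53.9%). Per kilobase of exon, the mean level over clean cells was 99.6 CPM for Gkn3, 46.1 for Gja4, 29.1 for Ephb4, 27.0 for Bmx, 24.0 for Vwf, 15.9 for Vegfc, 9.08 for Nr2f2, 7.95 for Sema3g, 4.72 for Efnb2 and 3.60 for Gja5. This order leans on the 8 cells of plate 044: over the other 183 cells Gkn3 was at 58.8, Gja4 at 35.0, Ephb4 at 29.3, Vwf at 23.0, Bmx at 18.0, Vegfc at 10.2 and Gja5 at 2.13. Detection was uneven over plates: of the 8 clean cells of plate 044, Gkn3, Bmx, Gja4 and Vegfc were each found in 6, while of the 112 of plate 469 they were found in 7, 8, 12 and 7. A detection share needs a background, which the 56 microglia or macrophage-like cells give, with a median of 286548 counts against 325484 in clean cells. There Gkn3, Bmx, Sema3g, Efnb2, Vegfc and Ephb4 were detected in 0 of 56 cells, which allows a share of up to 5.36%. Nr2f2 was detected in 3.57%, Vwf in 10.7% and Gja5 in 8.93% of them. The overall share of Gja5 in clean cells, 8.38%, was thus no higher than this background, although its mean level was 20.7 CPM over clean cells against 3.05 CPM over the 2 plates with microglia or macrophage-like cells.

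The arterial genes gathered in a small set of cells. Of the 191 clean cells, 121 had none of the 7, 39 had 1, 6 had 2, and 25 had 3 or more, of which 2 had all 7. Vegfc and Bmx overlapped most closely, with Bmx in 17 of the 20 Vegfc cells (85%, exact binomial interval 62.1 to 96.8). Vegfc was found in 14 of the 19 Gkn3 cells, and Sema3g in 17 of the 23 Bmx cells. Across cells, Pearson's r of log2(CPM + 1) was 0.80 for Bmx with Vegfc, 0.68 for Gkn3 with Vegfc, and 0.66 for Bmx with Sema3g (191 cells, which share plates and differ in depth). Efnb2, the arterial ephrin ligand, followed the others less closely, with r of 0.20 to 0.34 to the other 6 arterial genes and Bmx in 10 of its 31 cells. In the 25 cells with 3 or more arterial genes, Sema3g was detected in 21, Bmx in 20, Vegfc in 19, Gja4 in 18, Gkn3 in 17, Efnb2 in 12 and Gja5 in 10, shares that the choice of these cells raises.

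**Figure D1:**
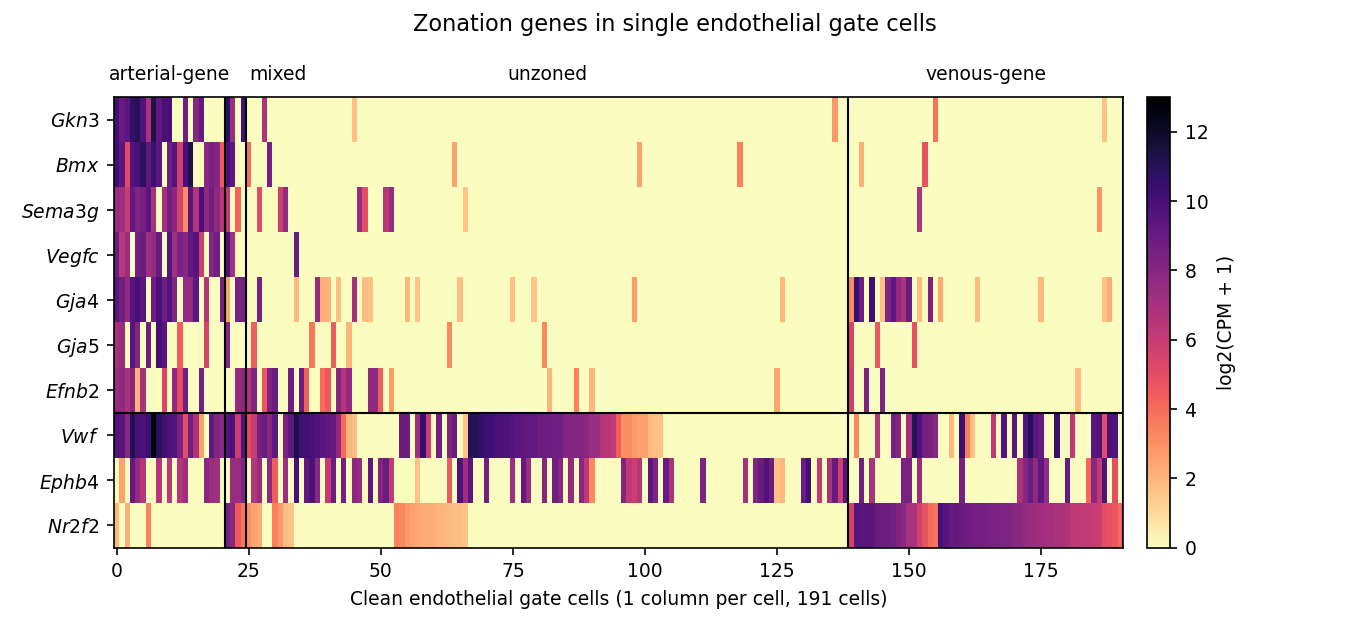
Level of each member, log2(CPM + 1), in each of the 191 clean endothelial gate cells, with 1 column per cell and cells ordered by zonation class. The arterial genes fill the 21 arterial-gene and 4 mixed cells at the left, while Vwf and Ephb4 run through every class.

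The 3 venous genes behaved differently toward the arterial set. Nr2f2 was detected in 4 of the 25 cells with 3 or more arterial genes (16%, exact binomial interval 4.54 to 36.1) and in 52 of the 166 other clean cells (31.3%, 24.4 to 39.0), and these intervals overlap. When every cell was thinned to 50000 counts and 1 read was required, the shares were 20.8% of 24 cells and 32.3% of 167 cells. Ephb4 was detected in 13 of the 25 cells (52%, 31.3 to 72.2) and in 71 of the 166 (42.8%, 35.1 to 50.7), and these intervals overlap too. Vwf lay higher in the arterial set. It was detected in 23 of the 25 cells with arterial genes (92%, 74.0 to 99.0) at a mean of 951 CPM, raised by 1 cell at 7112 CPM, and in 80 of the 166 others (48.2%, 40.4 to 56.1) at a mean of 301 CPM. Bmx illustrates this, since 22 of its 23 cells also had Vwf and 3 had Nr2f2. The 3 venous genes were also loosely tied to each other, with all 3 in 14 clean cells, r of -0.16 for Nr2f2 with Ephb4 and 0.06 for Ephb4 with Vwf.

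**Figure D2:**
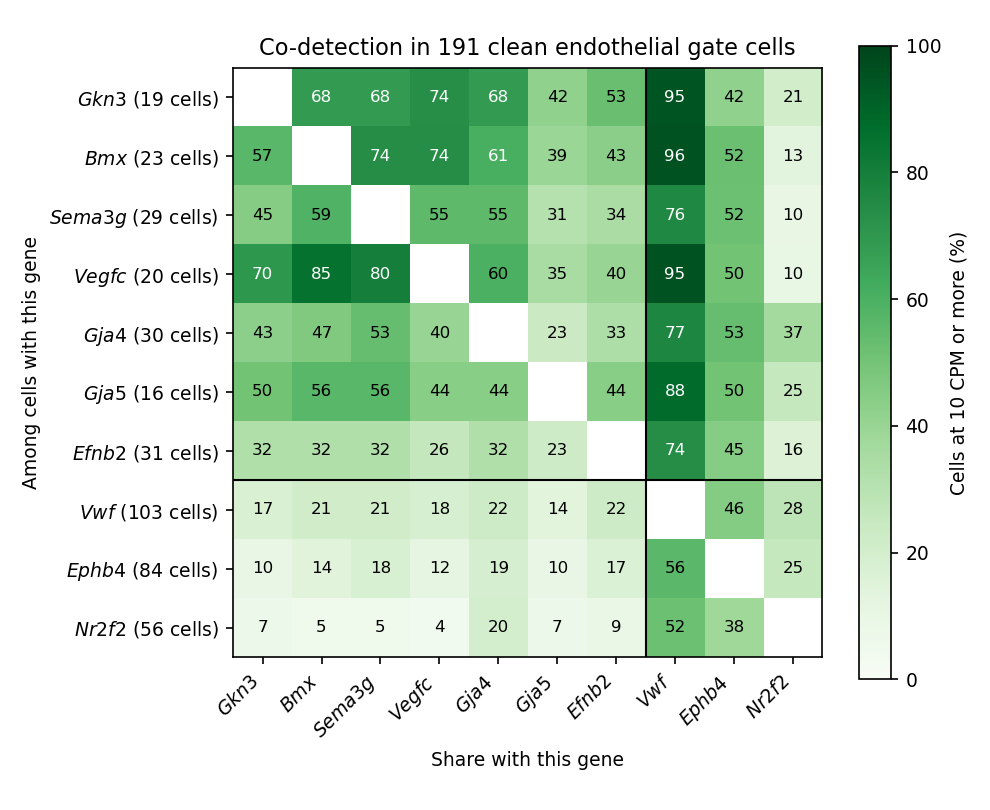
Percent of the clean cells with the row gene in which the column gene was also detected at 10 CPM or more. The block of Gkn3, Bmx, Sema3g and Vegfc is dense, the Vwf column is high for every arterial gene, and Nr2f2 ranges from 2 of 20 Vegfc cells to 11 of 30 Gja4 cells.

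Pericyte transcripts moved with Nr2f2 in these cells. Among endothelial-like clean cells, Nr2f2 was detected in 32 of the 90 with pericyte markers at 500 CPM or more (35.6%, 25.7 to 46.3) and in 12 of the 88 below (13.6%, 7.25 to 22.6). On plate 468 the shares were 11 of 29 and 5 of 25 cells, and on plate 469 they were 17 of 52 and 7 of 54 cells. The median depth was 329429 counts with the markers and 324845 without. Ephb4 was at 47.8% with and 46.6% without the markers. Bmx was found in 6 of the 90 cells (6.67%, 2.49 to 13.9) and in 17 of the 88 (19.3%, 11.7 to 29.1), with intervals that overlap. In the 88 cells without the markers, Nr2f2 was in 0 of the 18 with 3 or more arterial genes (0%, 0 to 18.5). It was in 12 of the other 70 (17.1%, 9.18 to 28.0), and these intervals overlap. All 9 clean cells of the unnamed cluster had Nr2f2, at 324 to 1069 CPM. The part of pericyte RNA in the Nr2f2 values was not tested.

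Cells were then classed as arterial-gene (3 or more arterial members without Nr2f2), venous-gene (Nr2f2 with fewer than 3), mixed (both) or unzoned (neither). Clean cells split into 21 arterial-gene, 52 venous-gene, 4 mixed and 114 unzoned cells. Of the 52 venous-gene cells, 40 were endothelial-like by cluster and 9 belonged to the unnamed cluster. Pericyte markers reached 500 CPM in 30 of the 52 (57.7%, 43.2 to 71.3) and in 3 of the 21 arterial-gene cells. They also did so in 55 of the 114 unzoned cells (48.2%, 38.8 to 57.8) and in 4 of the 4 mixed cells. The venous-gene and unzoned intervals overlapped. By plate, the KO arterial-gene cells numbered 2 on plate 043, 0 on 467 and 1 on 471, and the WT ones 5 on plate 044, 5 on 468 and 8 on 469. Venous-gene cells numbered 1, 0 and 0 on the KO plates and 1, 22 and 28 on the WT plates. Nearly all venous-gene cells thus came from plates 468 and 469, which also supplied most clean cells. The share of arterial-gene cells was 3 of 10 in KO (30%, 6.67 to 65.2) and 18 of 181 in WT (9.94%, 6.00 to 15.3). Within WT it was 5 of 8 on plate 044, 5 of 61 on plate 468 and 8 of 112 on plate 469, so WT plates ranged more widely than the 2 genotypes lay apart.

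Over all 242 gate cells, 3 or more arterial members were detected in 30 of 46 KO cells (65.2%, 49.8 to 78.6) and 26 of 196 WT cells (13.3%, 8.85 to 18.8). By the arterial-gene class, which also asks that Nr2f2 be absent, the shares over all gate cells were 4 of 46 in KO (8.70%, 2.42 to 20.8) and 19 of 196 in WT (9.69%, 5.94 to 14.7), close in value. Since Gja4 and Efnb2 are also read in mural cells, the count was repeated with the 5 members that are low there (Gkn3, Bmx, Sema3g, Gja5 and Vegfc), an alternative chosen after seeing the data. At least 2 of these 5 were detected in 32 KO cells, as 6 of 16, 8 of 12 and 18 of 18 on plates 043, 467 and 471. They were detected in 24 WT cells, as 11 of 19, 5 of 61 and 8 of 116 on plates 044, 468 and 469. Plate 044, a WT plate with 57.9%, lay between KO plates 043 and 467, so the genotypes overlapped. The KO plates and plate 044 also resembled each other in their sort yield, with 75.9% to 89.7% of their cells in the smooth muscle gate, against 9.09% and 16.1% on plates 468 and 469. Genotype and the make-up of the plates cannot be told apart for these shares.

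**Figure D3:**
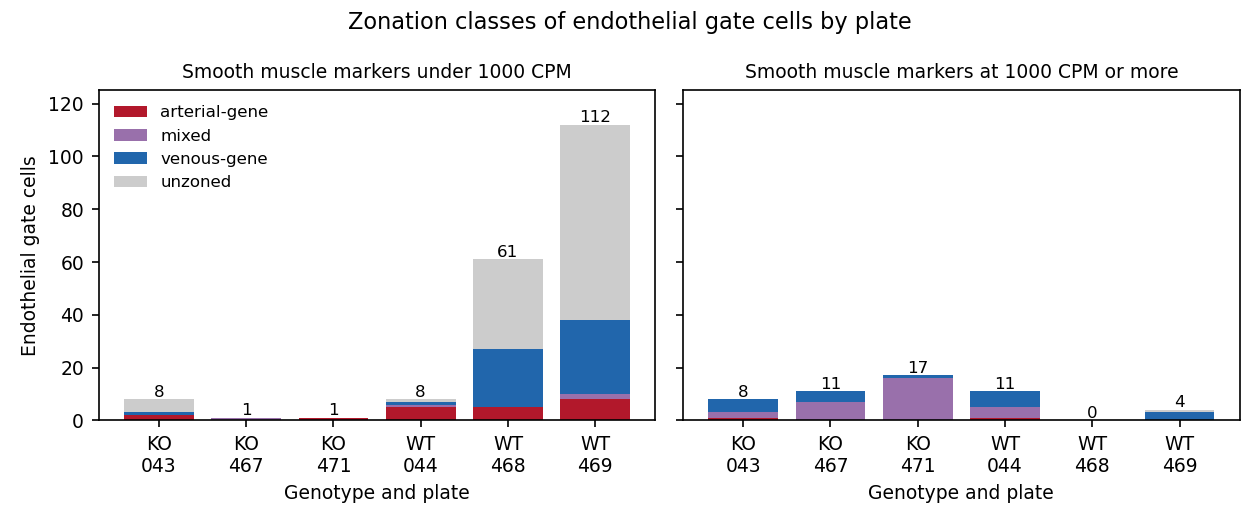
Number of endothelial gate cells per plate in each zonation class, for cells with smooth muscle markers under 1000 CPM (left) and at 1000 CPM or more (right). Plates 468 and 469 hold 61 and 112 clean cells, while most gate cells of KO plates 467 and 471 carry smooth muscle markers and are mixed.

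Of the 51 gate cells with smooth muscle markers, 29 were mixed by the rule, 19 venous-gene, 2 arterial-gene and 1 unzoned. Nr2f2 and Gja4 are also read in mural cells without endothelial markers, so in these cells they do not mark endothelium alone. Gkn3 was detected in 27, Bmx in 31, Sema3g in 32 and Vegfc in 28 of them, against 8, 13, 2 and 16 of 1328 smooth muscle gate cells. Nr2f2 was detected in 48 and Gja4 in 46 of the 51 cells. On plate 471, 16 of 17 such cells were mixed by the rule, and on plate 467 it was 7 of 11. Plate 043 had 2 mixed cells of 8, plate 044 had 4 of 11, plate 469 had 0 of 4, and plate 468 had no such cell.

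Summed per plate over all gate cells and scaled, the arterial genes were higher in KO on average but the plates overlapped. Gkn3 was at 246, 728 and 366 CPM in KO (plates 043, 467 and 471, an order kept below) and at 540, 19.3 and 63.2 CPM in WT (plates 044, 468 and 469). Vegfc was at 123, 182 and 268 CPM in KO and at 244, 16.1 and 22.1 CPM in WT. In both cases plate 044 lay within the KO range and the other WT plates far below it. The KO minus WT differences in mean log2(CPM + 1) were 2.18 for Gkn3, 1.99 for Vegfc, 1.77 for Gja4, 1.37 for Bmx, 1.24 for Sema3g, 1.01 for Efnb2, 0.94 for Nr2f2, 0.46 for Gja5, 0.08 for Vwf and -0.66 for Ephb4. The sign depended on which plates were set against each other. Efnb2 was level between plates 043 and 044, at 45.5 and 45.6 CPM. The other arterial genes were lower on plate 043 than on plate 044, from -0.25 for Sema3g to -2.05 for Gja5. On KO plates 467 and 471 the arterial genes were higher than on WT plates 468 and 469, from 1.51 for Efnb2 to 3.84 for Gkn3. No share of all genes by direction is given beside these contrasts, so they describe the members only. A size rule asked for a mean of 10 CPM, a read in 10% of cells, a 2-fold difference and plates that do not overlap. None of the 10 members met it (0 of 10), where 2.96% of 10914 genes met it as higher and 4.08% as lower in KO. Plates overlapped for all 10 members, while 11.6% of genes had plates apart. With plate 044 left out, 8 members met it, all higher in KO (Gkn3 3.48, Vegfc 3.20, Gja4 2.93, Bmx 2.38, Sema3g 1.87, Gja5 1.37 and Efnb2 1.24 on the log2 scale, and Nr2f2), beside 7.46% of genes higher and 11.5% lower. Efnb2 alone met it without plate 043, at 1.28, beside 6.63% of genes higher and 8.74% lower. Nr2f2 alone met it without plate 471, at 1.21, beside 5.23% higher and 8.72% lower. Smooth muscle markers moved with these values, being present in 36 of 46 KO and 15 of 196 WT gate cells, and their part was not tested.

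In clean cells the only KO plate with 5 or more cells was 043, with 8 cells, so KO is a single value there. Nr2f2 was at 12.2 CPM on plate 043 and at 52.6, 89.3 and 69.1 CPM on plates 044, 468 and 469, a difference of -2.40, and was the only member to meet the size rule. The background was high in this thin comparison, where the rule took 17.5% of 10345 genes as higher and 19% as lower in KO. Ephb4 was at 87.5 CPM against 125, 101 and 170 CPM, so that Nr2f2 and Ephb4 had KO and WT plates apart, as did 58.6% of all genes. Without plate 044, 7 members met it, namely Nr2f2 at -2.59 and 6 arterial genes higher in KO, among them Gkn3 at 2.82 and Vegfc at 2.65, where 16.8% of all genes were higher and 28.0% lower. The sign of the Nr2f2 difference was thus negative in clean cells and positive, at 0.94, over all gate cells.

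Other genes of the artery to vein axis were read from lists of known zonation genes on plates 468 and 469, the plates with at least 5 arterial-gene cells (5 and 8) and 5 venous-gene cells (22 and 28). With no independent animals these are values, not tests. Of 25 listed arterial genes, 24 passed the filter on low values; 21 were at least 2-fold higher in arterial-gene cells and 0 at least 2-fold lower, with a median difference of 2.22 on the log2 scale. Over all 10606 genes, 13.9% were at least 2-fold higher in arterial-gene cells and 40.7% at least 2-fold lower, with a median of -0.50. With endothelial-like cells alone on these plates, 19 of the 24 were at least 2-fold higher and 1 at least 2-fold lower. There 17.0% of 10087 genes were at least 2-fold higher and 36.0% at least 2-fold lower. The elastic fibre genes Fbln5 and Eln, the chaperone gene Clu and the tubulin regulator Stmn2 led the list, at 8.72, 5.89, 6.58 and 5.83. Fbln5 had means of 441 and 649 CPM in arterial-gene cells of plates 468 and 469 and 0.309 CPM over both plates in venous-gene cells. A minority of cells carried these means, since a read of Fbln5 was present in 38.5% of the arterial-gene cells. For Eln, Clu and Stmn2 that share was 61.5%, 100% and 92.3%. In the venous list 10 of 17 genes passed the filter, with 5 at least 2-fold higher in venous-gene cells, 1 in arterial-gene cells and a median of -1.08. The latter was the adhesion molecule Vcam1, at 413 against 11.0 CPM on plate 468 but 119 against 121 CPM on plate 469. The 4 largest differences of the venous list were the semaphorin and VEGF co-receptor Nrp2 at -5.57, the interleukin receptor Il1r1 at -5.07, the adhesion molecule Icam1 at -4.25 and the amino acid transporter Slc38a5 at -2.98. A read of these genes was present in only 30%, 16%, 24% and 42% of venous-gene cells. In arterial-gene cells the shares were 7.69%, 0%, 15.4% and 23.1%. Plates 468 and 469 differed, with Icam1 at -6.67 and -1.83 and Slc38a5 at -1.56 and -4.41. Of 16 capillary genes, all passed the filter, and 8 were at least 2-fold higher in venous-gene cells, among them Car4 (-6.43), Hmcn1 (-3.41), the transferrin receptor Tfrc (-3.26) and the lactate transporter Slc16a1 (-2.74). Of these, Tfrc averaged 88.7 CPM in arterial-gene, 850 CPM in venous-gene and 934 CPM in unzoned cells, the last 2 being close in value. In endothelial-like cells without pericyte markers, with plates pooled, 17 of 24 arterial-list genes were at least 2-fold higher and 14 of 16 capillary genes at least 2-fold lower in arterial-gene cells, and of 9 venous genes 3 were at least 2-fold higher in venous-gene and 2 in arterial-gene cells, while over all genes 33.2% were higher and 22.3% lower with a median of 0.12.

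Of the members that the classes did not use, Vwf was at 680 and 1295 CPM in arterial-gene cells of plates 468 and 469 and at 320 and 324 CPM in venous-gene cells. A single cell at 7112 CPM carried the value of plate 469, where the other 7 arterial-gene cells averaged 464 CPM. The medians were 400 and 190 CPM in arterial-gene cells and 37.5 and 2.48 CPM in venous-gene cells of the 2 plates. These venous-gene medians include cells outside the endothelial-like cluster. In endothelial-like venous-gene cells alone, the Vwf medians were 351 and 53.0 CPM and the means 434 and 412 CPM, closer to the arterial-gene values. Ephb4 was at 18.2 and 149 CPM in arterial-gene cells and 73.0 and 120 CPM in venous-gene cells, and its order differed between the plates. With endothelial-like venous-gene cells alone, Ephb4 was at 100 and 153 CPM, higher than in arterial-gene cells on plate 468 and close in value on plate 469. The arterial-gene value of plate 468 came from 1 of 5 cells. Gja4, which helped define the classes, averaged 97.7 CPM in venous-gene cells against 7.41 CPM in unzoned cells, but few cells carried this mean. It was detected in 5 of 22 venous-gene cells of plate 468 and 3 of 28 of plate 469, with a median of 0 on both and highest values of 1443 and 1292 CPM. Among endothelial-like venous-gene cells, the mean was 55.0 CPM on plate 468 and 96.4 CPM on plate 469. Pericyte markers were present in 30 of the 52 venous-gene and 55 of the 114 unzoned cells, and pericyte-like cells carried Gja4 at 1021 CPM. Among endothelial-like clean cells, Gja4 was detected in 14 of the 90 with pericyte markers and 14 of the 88 without. The part of pericyte RNA in the Gja4 values was not tested.

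The genes whose levels followed each member most closely in clean cells were listed where r reached 0.4. Fbln5 was first for Gkn3 (0.70), Bmx (0.68) and Vegfc (0.62), Nos1, a nitric oxide synthase, was first for Sema3g (0.63), and Gper1, an oestrogen receptor, was first for Gja4 (0.73). Syt15 was first for Gja5 (0.53), and Msx1 was the only gene past 0.4 for Efnb2 (0.48). Nr2f2 was followed by Heyl, a Notch target, Fxyd1, a regulator of the sodium pump, and Gucy1b3, a subunit of soluble guanylate cyclase, at 0.53, 0.52 and 0.49. These values ran over all clean cells, including those with pericyte markers and those of the unnamed cluster. The part of such cells in the correlations with Nr2f2 was not tested. Ephb4 and Vwf had no gene at 0.4, with highest values of 0.32 and 0.36.

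Outside the endothelium the members fell into separate groups. Of all reads in the table, 95.4% of those of Gkn3, 97.7% of Sema3g, 88.5% of Bmx, 91.7% of Vwf, 70.3% of Vegfc and 64.8% of Gja5 lay in endothelial gate cells. For Gja4 and Nr2f2 these shares were 4.74% and 4.42%, and smooth muscle gate cells held 93.5% and 78.9% of their reads. Efnb2 and Ephb4 lay between, with 20.9% and 45.9% in the endothelial gate. In the 939 smooth muscle-like cells Gja4 was detected in 94.8% at 789 ± 115 CPM and Nr2f2 in 93.9% at 365 ± 69.9 CPM (mean and SD over 6 plates). In the 283 pericyte-like cells, which also carried Acta2 at 4490 ± 1212 CPM, Gja4 was at 1021 ± 116 CPM and Nr2f2 at 510 ± 103 CPM. Nr2f2 was also detected in 95.2% of 188 fibroblast-like cells at 363 ± 73.9 CPM. Efnb2 and Ephb4 were each found in over 50% of those fibroblast-like cells, in 56.4% and 55.3%, at 91.2 ± 47.1 and 84.2 ± 22.3 CPM. In smooth muscle-like cells Efnb2 was in 12.6% and Ephb4 in 6.18%, the latter below the 16.5% of astrocyte-like cells. Vegfc was in 0 of 283 pericyte-like cells, which allows up to 1.06%.

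**Figure D4:**
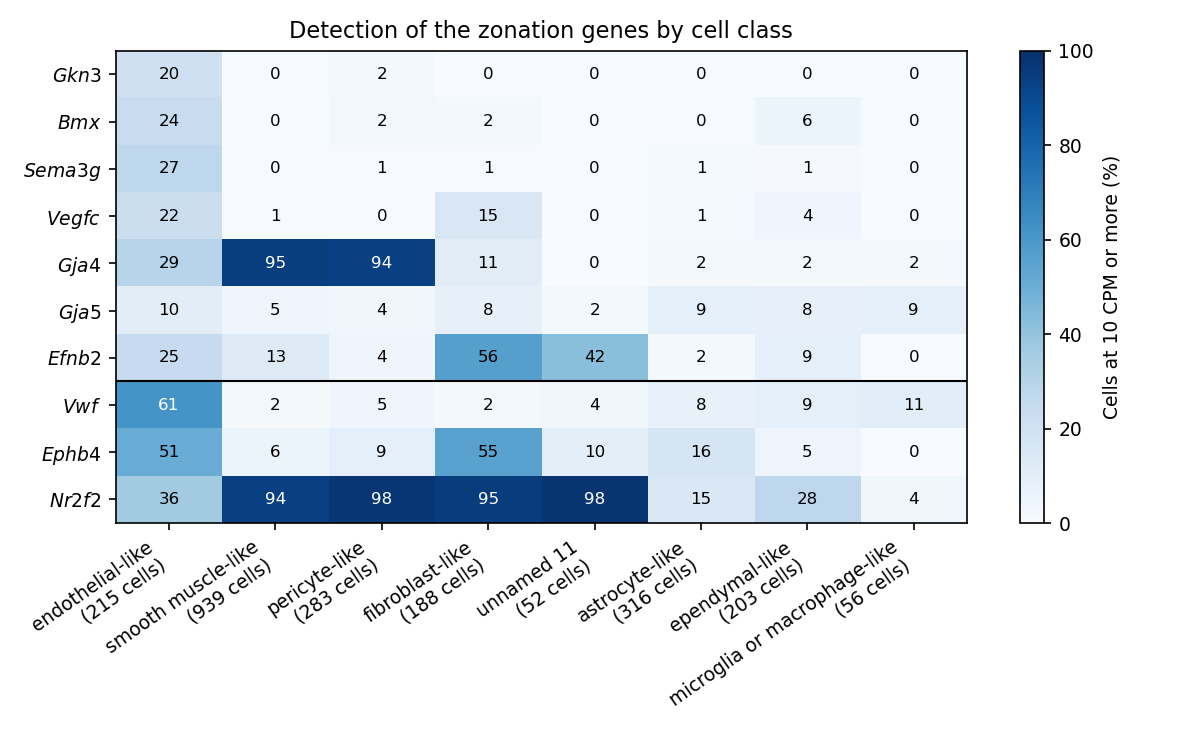
Percent of cells in each cell class with each member at 10 CPM or more, with the number of cells under each class. Gja4 and Nr2f2 are at 93.6% to 97.5% in smooth muscle-like and pericyte-like cells, and Nr2f2 also at 95.2% in fibroblast-like cells and 98.1% in the unnamed cluster.

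The mural comparison by genotype used a smooth muscle gate, Acta2, Myh11 and Tagln together at 1000 CPM or more without the endothelial gate, which held 1328 cells (894 KO and 434 WT). By cluster 934 of these were smooth muscle-like, 263 pericyte-like, 101 ependymal-like and 25 fibroblast-like, so the gate was mixed. Nr2f2 and Gja4 were found together in 1076 of the 1328 cells, and 90.8% of Nr2f2 cells had Gja4 against 43.4% of cells without Nr2f2. Over all cells of each class, Gja4 and Nr2f2 were detected in 94.8% and 93.9% of smooth muscle-like cells. In ependymal-like cells the shares were 1.97% and 27.6%. The part of this mix of classes in the pairing was not tested. Notch3, the targeted gene, was at 68.2, 78.4 and 96.2 CPM in KO and at 227, 710 and 1073 CPM in WT, a KO minus WT difference of -2.78 on the log2 scale. The plates did not overlap, and plate 044 was the lowest WT plate.

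Nr2f2 was at 441, 376 and 345 CPM in KO and at 399, 283 and 333 CPM in WT. The plates overlapped, and the difference of 0.20 on the log2 scale was close to the SD over plates of 0.18 in KO and 0.25 in WT. In smooth muscle-like clusters alone it was 0.46, with SDs of 0.13 and 0.28 and plates that did not overlap, as for 9.50% of all genes there, and it stayed under the 2-fold size. Ephb4 was at 20.5, 12.4 and 10.7 CPM in KO and at 6.42, 15.3 and 32.0 CPM in WT, a difference of -0.08 with plates that overlapped. Its direction differed between plate sets, at 1.54 for plate 043 minus 044 and -0.89 for plates 467 and 471 minus 468 and 469. Few cells carried the Ephb4 values of plates 468 and 469, where it was detected in 3 of 34 and 6 of 60 gate cells. The other plates held 281 to 340 gate cells each. Gja4 was at 931, 602 and 552 CPM in KO and at 997, 679 and 850 CPM in WT, a difference of -0.30. Efnb2 was at 15.2, 13.8 and 22.6 CPM in KO and at 18.8, 38.0 and 33.8 CPM in WT, a difference of -0.75. The 6 other members were below the filter on low values in these cells. None of the 4 members that passed it met the size rule, which took 5.54% of 10281 genes as higher and 0.973% as lower in KO, and none had plates apart, against 15% of genes. Efnb2 met it without plate 044, at -1.05, beside 10.1% of genes higher and 3.17% lower. Ephb4 met it on plates 043 and 044 alone, at 1.53, beside 4.76% higher and 1.67% lower.

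**Figure D5:**
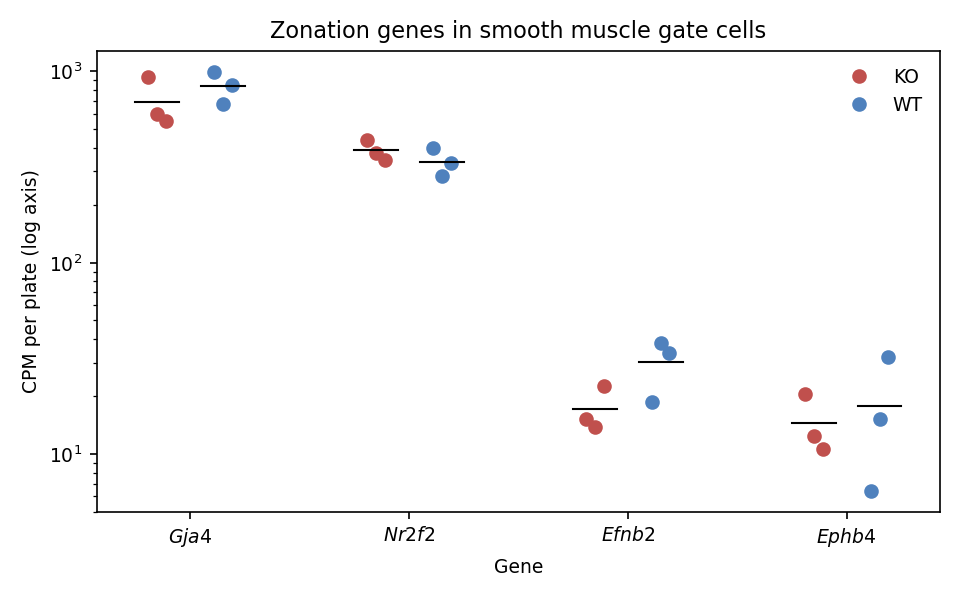
CPM of the 4 members that passed the filter in smooth muscle gate cells, on a log axis, with 1 point per plate and a bar at the mean of the 3 plates of a genotype. The KO and WT points overlap for each of Gja4, Nr2f2, Efnb2 and Ephb4.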

How the data were processed

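The deposited table holds raw counts, whole numbers of reads for each gene in each cell, not normalized by the authors. Per the submitters' processing notes, TopHat2 2.1.1, SAMtools 0.1.18 and featureCounts of Subread 1.4.6-p5 were used with GRCm38 (mm10). The annotation version, strand setting and any cell filter are not given in the sources used here.

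Cells needed 50000 counts and 1000 genes. The 10 members, gene lists and rules were chosen with earlier results of these data known. Cells were clustered without the members and Notch3 (2000 variable genes, 30 components, 20 neighbours, Leiden resolution 1, leidenalg 0.10.2), giving 12 clusters. A cluster took the name of the best of 14 marker lists, with thresholds set after seeing the clusters. No doublet caller was run. Pericyte markers at 500 CPM or more were used to split clean cells, a choice made after seeing the data.

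Counts were summed per plate (at least 10 smooth muscle or 5 endothelial gate cells) and scaled with TMM factors from edgeR 4.0.16, and differences are in log2(CPM + 1). Genes named were the members, up to 3 genes per member by correlation over genes detected in 5% of clean cells, and the 4 largest differences of each list. Alternatives included DESeq2 1.42.0 size factors. Intervals are exact binomial (Clopper-Pearson) at 95%, and a share allowed by a count of 0 is 3 cells of the total. They reflect error in counting cells alone, because cells share plates and the labels name no animal. PCR copies of reads carry no molecular identifiers here.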

Additional observations from a re-analysis of the deposited data

How the results depend on the processing

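Gate counts stayed within 1.5 times under all 4 alternatives (41 to 56 KO and 173 to 202 WT cells). With all gate cells, the Nr2f2 share was 58.9% among cells with 3 or more arterial genes and 38.2% among those with fewer. In clean cells the order was the reverse, at 16% and 31.3%. Requiring only 1 read gave a venous-gene share of 38.7% in WT, and an Nr2f2 share of 43.6% among cells with fewer arterial genes. In endothelial-like cells without pericyte markers (chosen after seeing the data), arterial-gene shares were 100% of 3 KO and 17.6% of WT cells, venous-gene shares 0% and 14.1%, and the Nr2f2 shares 0% and 17.1%. By 2 of 5 members over all gate cells the KO arterial share was 69.6%. Leaving out 1 plate each gave a venous-gene share in KO of 0% to 11.1% and an arterial-gene share of 22.2% (without 471) to 50% (1 of 2 cells, without 043).

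In the smooth muscle gate, Nr2f2 differed by 0.46 in smooth muscle-like clusters alone and Ephb4 by 1.53 on plates 043 and 044. The count meeting the size rule there was 670, against 316 in smooth muscle-like clusters, 303 at 3000 CPM, 1609 on the 4 later-numbered plates and 1752 without the filter, and leaving out 1 plate each gave 560 to 1397 (1102 without plate 043 and 1397 without plate 044). In clean cells it was 3777, against 768 in all gate cells (1712, 1504, 2076 and 1173 there without plates 043, 471, 044 and 469), and no value could be had without plate 043, the only KO plate. Genes 2-fold higher in arterial-gene cells numbered 1473, against 2263 with 4 arterial members, which left plate 469 alone, and 3286 in endothelial-like cells without pericyte markers with plates pooled, and 1473 to 2402 when 1 plate each was left out (2263 without plate 468 and 2402 without plate 469). Those higher in venous-gene cells numbered 4313, against 2576 with plates pooled and 2205 with plates pooled in endothelial-like cells without pericyte markers. No paired analysis was possible because the labels give KO and WT no shared replicate numbers.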
